A study of Rattus norvegicus with 60 samples.

Results

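The 29 genes described here encode enzymes that build cholesterol from acetyl-CoA (18 genes), the sensors and the transcription factor that set the rate of synthesis (4 genes), and proteins that move sterols into, within and out of cells (7 genes). They were chosen by symbol for these known roles. The rule used no measured value, but earlier results of these data were known when the genes were chosen. All 29 were found among the 34322 genes listed in the files. RNA was sequenced from liver and mesenteric adipose tissue, the fat around the gut vessels, in 60 libraries from male and female Sprague-Dawley rats aged 5 months. In utero they had been exposed through the dam to vaporized ethanol (prenatal alcohol exposure, PAE) or, as controls, to room air, for 12 days within gestational days 8 to 20. Stroke animals had had a middle cerebral artery occlusion 2 days before the tissues were taken, and naive animals were littermates without one. Each tissue had 8 PAE stroke, 8 PAE naive, 7 control stroke and 7 control naive libraries, with 4 animals of each sex per PAE group and 3 males and 4 females per control group. All rats shared the strain, the supplier, the vapour chamber procedure of the dams and the age. The labels name neither a sham operation nor the litter of an animal, so an effect of the occlusion and an effect of the operation cannot be told apart. The labels list the libraries as separate samples, and p-values measure the spread between them. Exposure was given through the dam and litters are not known, so p-values for exposure do not measure the spread between litters.

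Cells make cholesterol by joining acetyl units into mevalonate, turning mevalonate into isoprenoid diphosphates, condensing these to squalene, closing squalene to lanosterol and trimming lanosterol to cholesterol. When membranes of the endoplasmic reticulum hold little sterol, Scap carries the transcription factor precursor encoded by Srebf2 to the Golgi, where it is cut and released to raise transcription of the synthesis enzymes, and when sterol is plentiful Insig1 and Insig2 hold Scap back. The liver is a main site of this synthesis and the organ that secretes cholesterol into bile, while adipose tissue mainly stores it.

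Library totals ran between 7722731 and 30417173 counts in liver and between 9808014 and 25373729 counts in adipose tissue. Nuclear ribosomal RNA took over 40% of the counts in 3 liver libraries and 1 adipose library, and it reached 51.1%, 17.9% and 28.7% in the livers of the 3 control stroke males, against 1.37% to 2.23% in the 4 control stroke females. In fat it was 0.469% to 2.44% in PAE stroke males and 11.9% to 28.0% in PAE stroke females. Hepatocyte markers (7 genes, among them Alb and Apoa1) summed to 66593 to 117037 CPM (counts scaled to a common library size, as all levels here) in liver and to 20.1 to 313 CPM in adipose tissue, and adipocyte markers (6 genes, among them Adipoq and Plin1) to 57.5 to 96.1 CPM in liver and to 5996 to 14339 CPM in adipose tissue. Summed counts of 3 Y-linked genes were 308 to 4953 in male and 0 to 1 in female libraries, as labelled. In these bulk tissues fewer cells of a type and less RNA per cell cannot be told apart.

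To show what the promoters of these genes share, the 250 bases before the annotated start were read from the RefSeq-based promoter table (rat assembly GRCr8, another build than the rn7 of the counts). Of the 29 genes, 24 had an entry. The sequences below are those of the genes on which the liver results turn: 4 enzymes and Insig1, which were higher after stroke, Insig2, which had the opposite sign, and the window shared by the divergent neighbours Abcg5 and Abcg8. Each is written from 5′ to 3′ on the gene's own strand, and capitals mark CCAAT or its reverse complement ATTGG (the CCAAT box, bound by NF-Y) and GGGCGG or its reverse complement CCGCCC (the GC box, bound by Sp1).
Acat2, chr1:50100590-50100839, plus strand: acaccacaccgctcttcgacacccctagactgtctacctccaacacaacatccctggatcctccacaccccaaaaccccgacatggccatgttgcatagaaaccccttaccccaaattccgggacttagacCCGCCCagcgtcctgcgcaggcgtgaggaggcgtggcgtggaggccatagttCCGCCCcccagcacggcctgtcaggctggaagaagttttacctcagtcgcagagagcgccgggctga
Idi1, chr17:66547525-66547774, minus strand: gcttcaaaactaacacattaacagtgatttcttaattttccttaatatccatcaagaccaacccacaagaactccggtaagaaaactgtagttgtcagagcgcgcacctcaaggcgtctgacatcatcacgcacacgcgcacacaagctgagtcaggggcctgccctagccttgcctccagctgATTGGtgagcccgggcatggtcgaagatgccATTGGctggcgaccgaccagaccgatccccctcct
Cyp51, chr4:30991443-30991692, plus strand: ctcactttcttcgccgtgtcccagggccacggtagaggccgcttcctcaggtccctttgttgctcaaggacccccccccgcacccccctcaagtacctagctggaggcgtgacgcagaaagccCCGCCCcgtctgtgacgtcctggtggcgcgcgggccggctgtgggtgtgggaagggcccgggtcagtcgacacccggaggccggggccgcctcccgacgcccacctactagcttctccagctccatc
Ebp, chrX:16971212-16971461, plus strand: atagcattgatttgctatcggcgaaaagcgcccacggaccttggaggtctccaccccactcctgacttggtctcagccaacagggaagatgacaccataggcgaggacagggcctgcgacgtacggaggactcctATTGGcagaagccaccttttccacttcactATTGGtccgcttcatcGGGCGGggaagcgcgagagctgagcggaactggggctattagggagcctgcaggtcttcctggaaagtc
Insig1, chr4:8057770-8058019, minus strand: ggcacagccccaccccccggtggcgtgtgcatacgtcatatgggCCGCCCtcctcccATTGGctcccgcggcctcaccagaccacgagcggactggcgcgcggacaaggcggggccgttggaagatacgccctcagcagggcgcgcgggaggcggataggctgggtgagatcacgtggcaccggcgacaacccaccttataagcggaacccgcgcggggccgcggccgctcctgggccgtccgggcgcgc
Insig2, chr13:35040099-35040348, minus strand: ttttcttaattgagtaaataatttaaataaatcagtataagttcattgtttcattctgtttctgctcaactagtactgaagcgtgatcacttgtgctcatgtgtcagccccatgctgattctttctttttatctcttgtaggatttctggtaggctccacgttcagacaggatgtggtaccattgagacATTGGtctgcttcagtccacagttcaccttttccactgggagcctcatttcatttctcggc
Abcg5 and Abcg8, chr6:15717731-15717935, plus strand of Abcg5: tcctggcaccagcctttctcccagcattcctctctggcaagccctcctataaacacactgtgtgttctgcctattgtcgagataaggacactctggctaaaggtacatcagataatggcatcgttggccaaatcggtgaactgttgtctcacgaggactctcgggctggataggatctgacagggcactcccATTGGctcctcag
CCAAT was found on either strand in 12 of the 15 enzyme promoters with an entry (80.0%) and in 18 of the 24 promoters in all (75.0%), against 34.0% of the 33469 promoters of the table. GGGCGG was found in 13 of the 15 enzyme promoters (86.7%) and in 19 of the 24 (79.2%), against 30.5% of the table. Acat2 and Cyp51 held GGGCGG without CCAAT, Idi1 and Insig2 held CCAAT without GGGCGG, and Ebp and Insig1 held both. The 9-letter form TCACNCCAC of the sterol regulatory element, searched on both strands, was in 0 of the 24 windows and in 0.974% of the table. Both strands were searched for each motif, no copies marked above share a base, and a match or its lack describes only these windows. The single CCAAT in the window shared by Abcg5 and Abcg8 was counted for both genes. The GC content of the windows was not matched to that of all promoters, so these shares are description only.

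Whether stroke altered these genes in the liver of PAE rats was asked first. In the livers of PAE rats, stroke raised 20 of the 29 genes and lowered 0, against 4.74% of all 15889 genes tested called higher (edgeR quasi-likelihood test, Benjamini-Hochberg adjusted p under 0.05 over all genes). The median log2 change was 0.87 over the 29 genes and 0.00 over all genes. Of the 18 enzymes 17 rose, with a median log2 change of 1.34, while 1 of the 4 regulators and 2 of the 7 transport genes rose. The mean log2 CPM over the 18 enzymes was 7.05 ± 0.31 in PAE stroke livers and 5.75 ± 0.48 in PAE naive livers (SD, n = 8 each), with lowest, median and highest values of 6.53, 7.04 and 7.40 after stroke and 4.89, 5.79 and 6.48 in naive livers. By this mean every PAE stroke liver lay above every PAE naive liver.

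**Figure D1:**
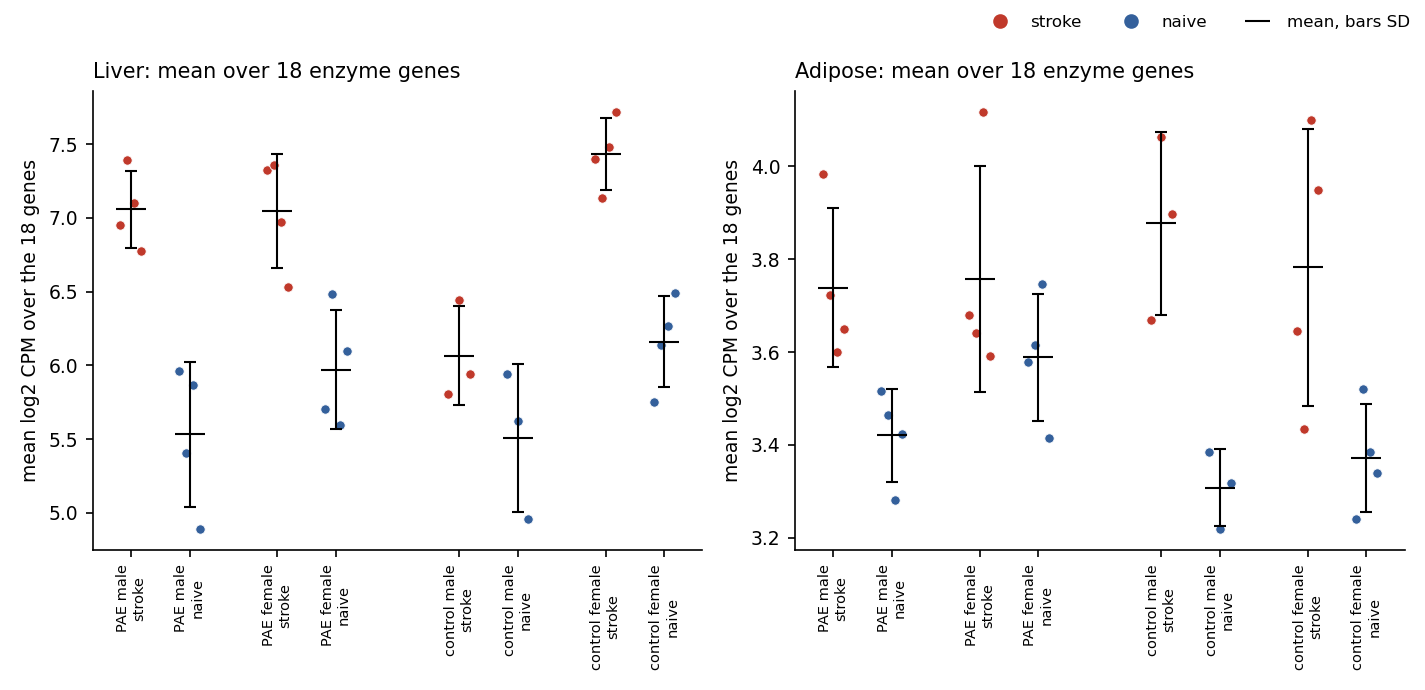
Mean log2 CPM over the 18 synthesis enzymes in each library (y axis) by group (x axis), liver left and adipose tissue right; points are libraries, bars the mean and SD of the group. PAE stroke livers sit between 6.53 and 7.40, above all PAE naive livers, while control stroke livers spread from 5.81 to 7.72.

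The first 7 enzymes lead from acetyl-CoA to farnesyl diphosphate, and 6 of them rose in PAE stroke livers. Acat2, the cytosolic thiolase that joins acetyl-CoA units, had the largest change of the 29 genes. Its lowest, median and highest levels were 20.0, 60.9 and 111 CPM in PAE stroke livers and 5.03, 12.3 and 25.5 CPM in PAE naive livers. The ranges met at a single stroke liver (female replicate 4, 20.0 CPM), and the log2 change was 2.27 ± 0.29 (SE, adjusted p = 1.8e-05). The files also list Acat2l1, a near copy by name, and how reads were divided between the pair is uncertain. Idi1, which isomerizes isopentenyl diphosphate, had 23.3, 35.7 and 98.9 CPM after stroke and 7.47, 12.4 and 16.5 CPM in naive livers. Its groups did not overlap, and the log2 change was 1.75 ± 0.28 (adjusted p = 0.00025). Mvd, which decarboxylates mevalonate diphosphate, had 13.1, 19.2 and 28.0 CPM after stroke and 2.17, 6.55 and 14 CPM in naive livers, a log2 change of 1.65 ± 0.31 (adjusted p = 0.0016) with ranges that overlapped by less than 1 CPM. Pmvk, the second of the mevalonate kinases, had 21.6, 25.9 and 31.9 CPM after stroke, and 6.25, 9.21 and 15.4 CPM in naive livers. Every stroke liver again lay above every naive liver (log2 change 1.42 ± 0.15, adjusted p = 8.3e-07). Mvk, the first of these kinases, and Fdps, which makes farnesyl diphosphate, rose by 1.15 ± 0.20 and 1.47 ± 0.27 on the log2 scale. Hmgcs1, the cytosolic synthase that feeds mevalonate synthesis, did not pass the test, with a median of 1038 CPM after stroke and 543 CPM in naive livers and a log2 change of 0.81 ± 0.30 (adjusted p = 0.10).

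All 3 enzymes from farnesyl diphosphate to lanosterol rose. Lss, which closes squalene epoxide to lanosterol, had 33.9, 242 and 328 CPM after stroke and 18.7, 67.3 and 99.4 CPM in naive livers. Its groups overlapped, 7 of 8 stroke livers were above the naive mean of their sex, and the log2 change was 1.72 ± 0.45 (adjusted p = 0.023). Sqle, the squalene epoxidase, and Fdft1, the squalene synthase, rose by 1.36 ± 0.30 and 0.87 ± 0.18, each above the naive mean of their sex in 8 of 8 stroke livers.

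All 8 enzymes that turn lanosterol into cholesterol rose, by log2 changes of 0.64 to 1.47. Cyp51, the lanosterol demethylase, had 444, 646 and 734 CPM after stroke and 133, 205 and 347 CPM in naive livers. Ebp, a sterol isomerase, had 87.1, 114 and 159 CPM after stroke and 29.1, 44.6 and 70.0 CPM in naive livers. In both, no stroke liver overlapped the naive livers, and the changes were 1.47 ± 0.16 and 1.38 ± 0.15 (adjusted p = 1.2e-06 each). Cyp51, Ebp, Idi1 and Pmvk were the 4 genes of the 29 that did not overlap between stroke and naive PAE livers, against 0.485% of all genes tested that were higher without overlap. The steps between rose too, with Hsd17b7 at 1.33 ± 0.23, Msmo1 at 1.22 ± 0.31 and Tm7sf2 at 1.12 ± 0.24. The changes of Dhcr7, the last reductase, Sc5d, a desaturase, and Nsdhl, a dehydrogenase of the demethylation steps, were 0.86 ± 0.19, 0.65 ± 0.17 and 0.64 ± 0.16. With the sexes pooled 14 of the 29 genes were called. Over all alternatives the calls of Tm7sf2, Dhcr7, Sc5d and Msmo1 were lost when the sexes were pooled, with adjusted p of 0.21, 0.14, 0.062 and 0.0502, and that of Sc5d also without PAE stroke male replicate 2 (adjusted p = 0.051).

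**Figure D2:**
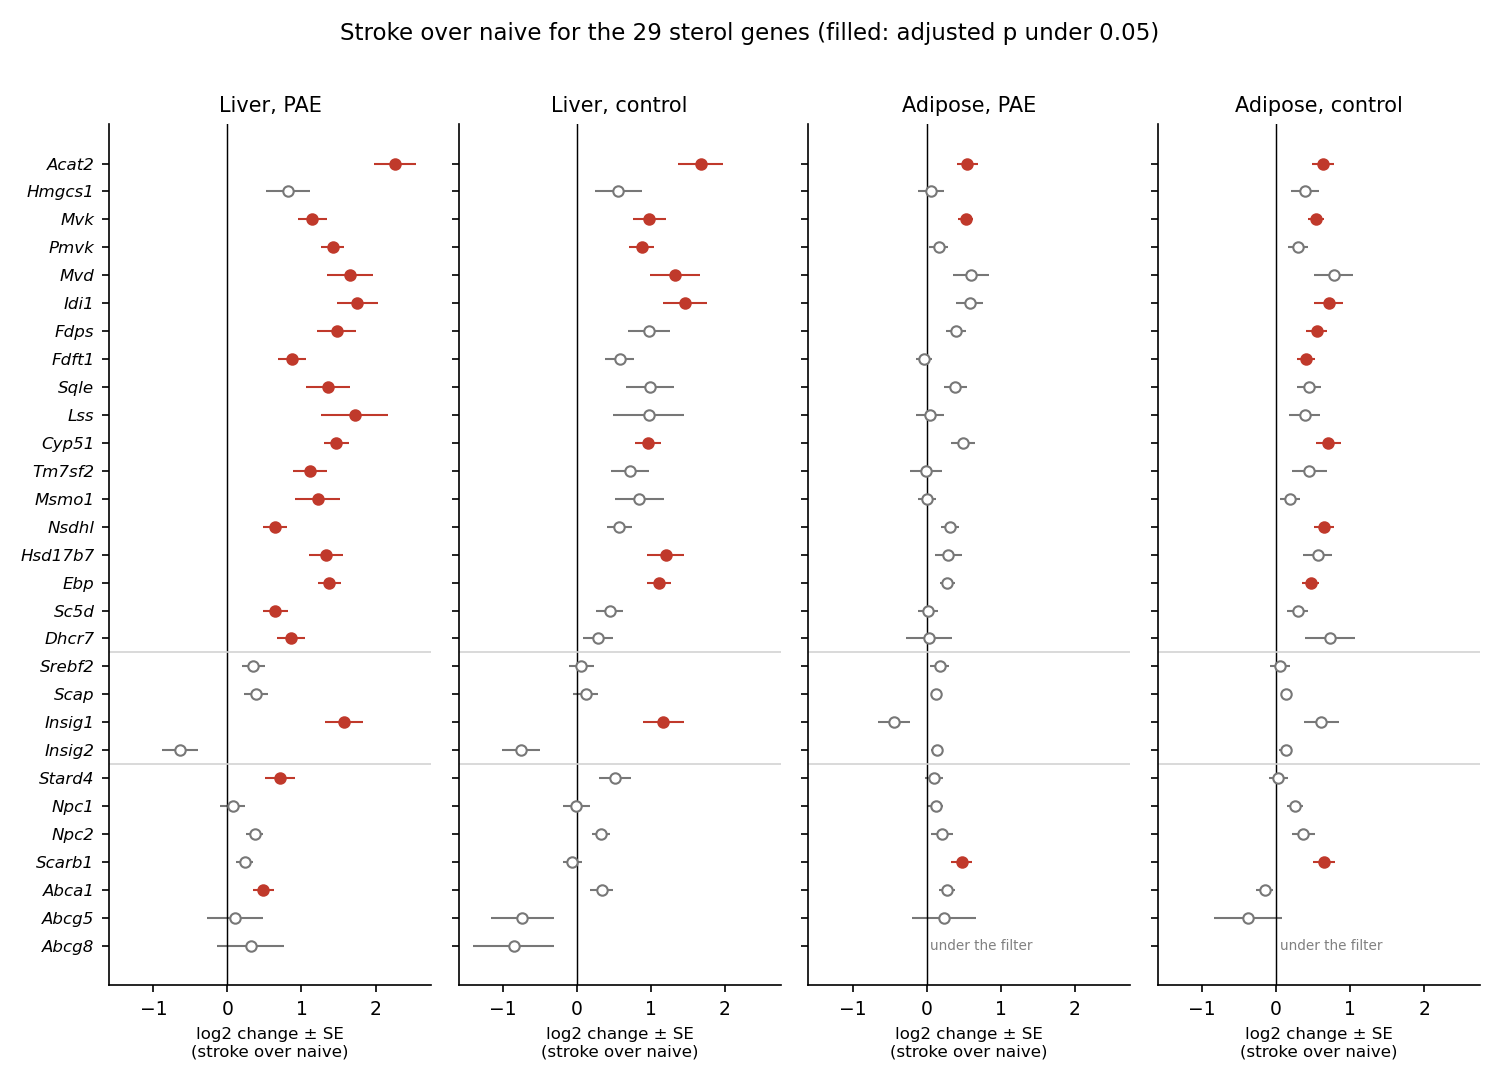
Log2 change after stroke with its SE (x axis) for each of the 29 genes (y axis, by role), in liver and adipose tissue of PAE and control rats; filled points have an adjusted p under 0.05. In PAE livers 20 genes are filled, all to the right of 0, and Insig2 lies left of 0 in both liver panels.

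The 4 regulators did not move together. Insig1, which retains Scap in the endoplasmic reticulum and is itself a target of the pathway, had 196, 591 and 887 CPM in PAE stroke livers and 102, 188 and 305 CPM in PAE naive livers. Its ranges overlapped, 8 of 8 stroke livers were above the naive mean of their sex, and the log2 change was 1.57 ± 0.26 (adjusted p = 0.00039). Insig2, its paralog, had 99.1, 166 and 245 CPM after stroke and 180, 275 and 352 CPM in naive livers. The groups overlapped, 2 of 8 stroke livers were above the naive mean of their sex, and the change of -0.64 ± 0.24 did not pass (adjusted p = 0.11). Srebf2 and Scap did not pass either, at 0.35 ± 0.16 (adjusted p = 0.19) and 0.39 ± 0.16 (adjusted p = 0.14).

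Among the transport genes, Stard4, a cytosolic sterol carrier, and Abca1, which loads cholesterol onto apolipoprotein A-I, rose by 0.70 ± 0.20 (adjusted p = 0.031) and 0.48 ± 0.14 (adjusted p = 0.035). Both calls rested on single libraries: leaving out any of 6 single libraries ended that of Stard4 and any of 10 that of Abca1, with adjusted p up to 0.085 and 0.091. Pooling the sexes ended both calls as well. Npc1 and Npc2, which pass sterol out of lysosomes, changed by 0.07 ± 0.17 and 0.37 ± 0.12 without a call (adjusted p = 0.88 and 0.051). Scarb1, the receptor that takes up cholesterol from high-density lipoprotein, changed by 0.23 ± 0.11 (adjusted p = 0.25). Abcg5 and Abcg8, the paired parts of the transporter that exports sterols into bile, had medians of 19.2 and 10.8 CPM after stroke and 15.4 and 6.57 CPM in naive livers, with changes of 0.10 ± 0.38 and 0.31 ± 0.45 (adjusted p = 0.93 and 0.77).

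Control rats were compared in the same way. In control livers stroke raised 9 of the 29 genes and lowered 0, against 2% of all genes tested called higher, with a median log2 change of 0.57 over the 29 genes and -0.01 over all genes. The 9 were 8 of the 18 enzymes (Acat2, Mvk, Pmvk, Mvd, Idi1, Cyp51, Hsd17b7 and Ebp) and Insig1. Acat2 had 22.1, 63.7 and 88.0 CPM in control stroke livers and 8.08, 15 and 26.0 CPM in control naive livers, with a log2 change of 1.67 ± 0.31 (adjusted p = 0.0026). Idi1 had 15.9, 27.5 and 65.3 CPM after stroke and 8.28, 12.5 and 19.7 CPM in naive livers (1.46 ± 0.30, adjusted p = 0.0057). In Acat2 and Idi1 the ranges overlapped, and all 7 stroke livers were above the naive mean of their sex. Cyp51 had 230, 610 and 1008 CPM after stroke and 126, 245 and 334 CPM in naive livers (0.96 ± 0.18, adjusted p = 0.0021). Insig1 had 234, 666 and 903 CPM after stroke and 128, 209 and 328 CPM in naive livers (1.16 ± 0.28, adjusted p = 0.019). Their ranges overlapped as well, with the lowest stroke livers below the highest naive ones. Insig2 had 76.4, 143 and 328 CPM after stroke and 153, 218 and 394 CPM in naive livers, and its change of -0.76 ± 0.26 did not pass (adjusted p = 0.12). Of the 29 genes 0 separated stroke from naive control livers without overlap, against 0.548% of all genes. Leaving out single libraries ended the calls of Mvk (control stroke male replicate 2, adjusted p = 0.059), Insig1 (3 libraries, adjusted p up to 0.072) and Mvd (6 libraries, adjusted p up to 0.17).

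**Figure D3:**
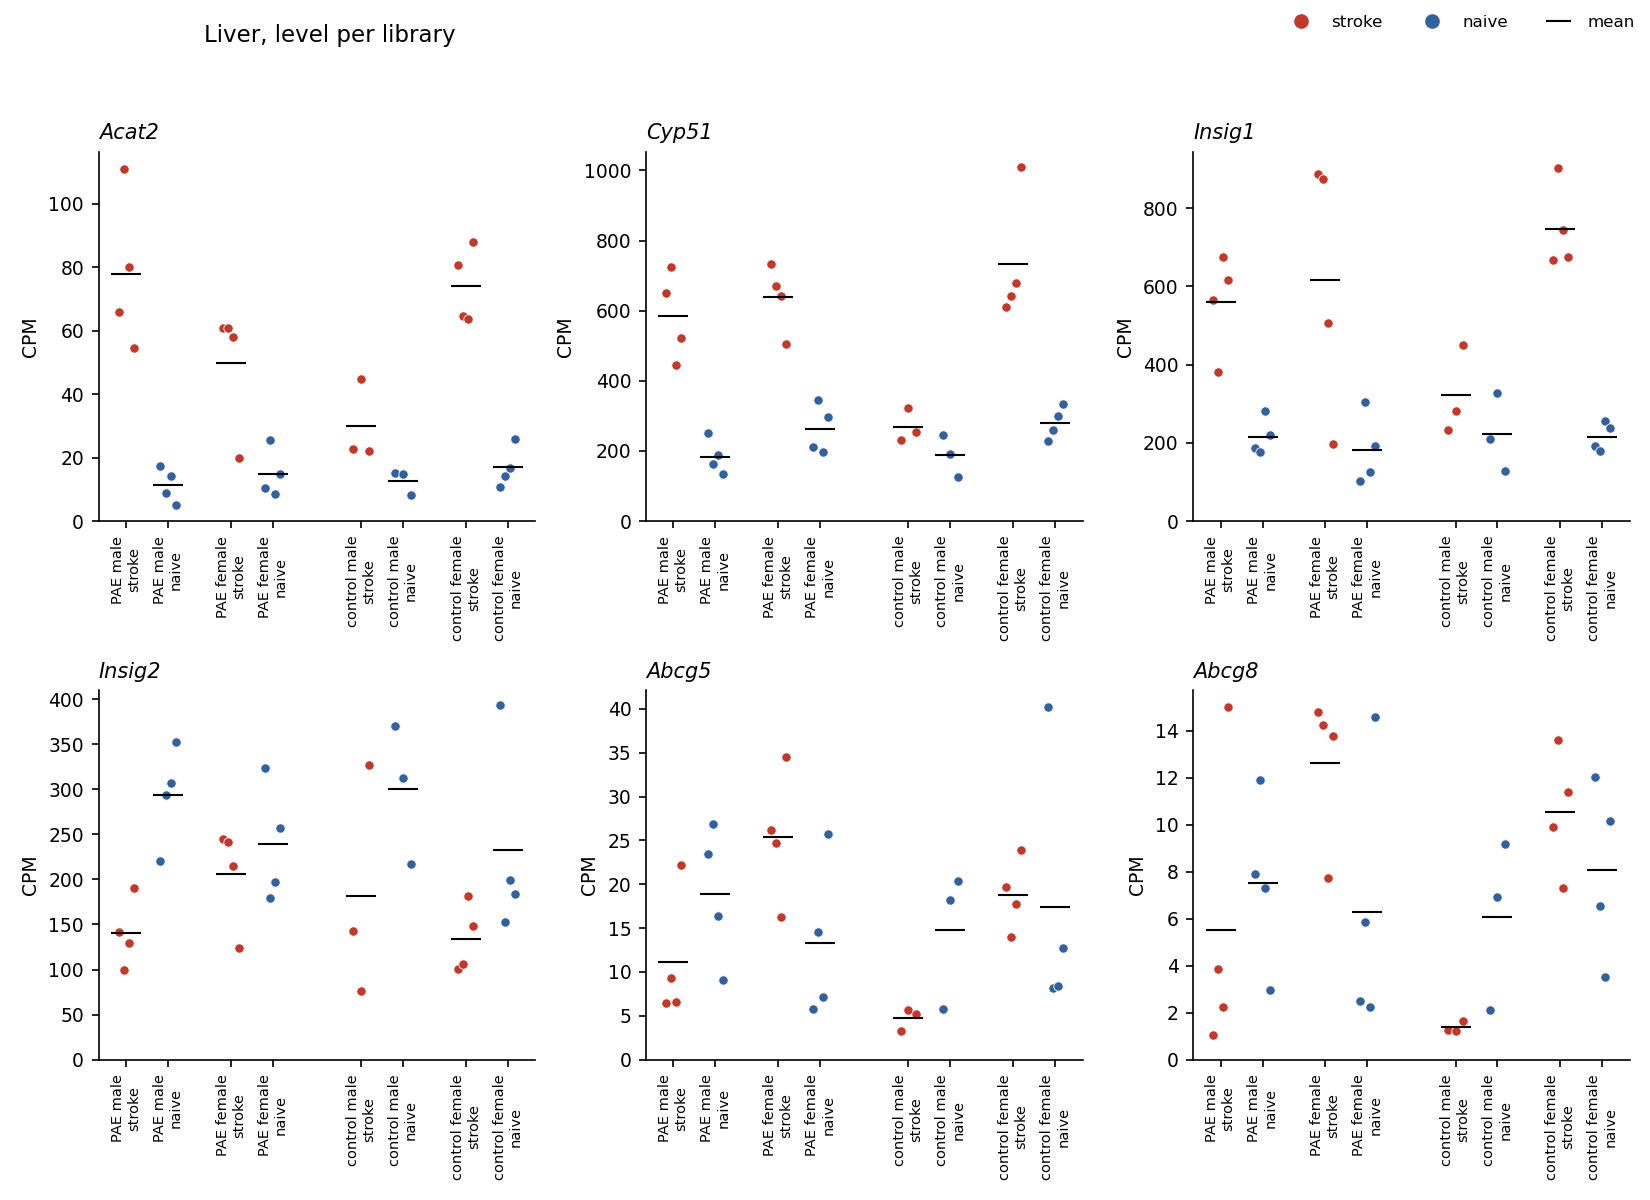
Level in CPM (y axis) of Acat2, Cyp51, Insig1, Insig2, Abcg5 and Abcg8 in each liver library by exposure, stroke and sex (x axis); points are libraries and lines group means. Control stroke females reach 1008 CPM of Cyp51 while control stroke males reach 323 CPM, and Insig2 points after stroke lie mostly under those of naive livers.

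Whether prenatal ethanol altered the levels or the response was tested directly. Between PAE naive and control naive livers 0 of the 29 genes were called, by edgeR and by DESeq2, and 0 of the 29 had an unadjusted p under 0.05. Of all 15889 genes 0% were called and 347 had an unadjusted p under 0.05. The log2 differences ran between -0.25 (Lss) and 0.20 (Scarb1), with a median SE of 0.21. Between PAE stroke and control stroke livers 0 of the 29 were called by either tool (0% of all genes by edgeR), and 4 had an unadjusted p under 0.05: Scarb1 (0.49 ± 0.12, adjusted p = 0.41), Cyp51 (0.46 ± 0.17), Scap (0.34 ± 0.17) and Abcg8 (1.15 ± 0.53). Of all 15889 genes 1030 had such a p. Scarb1 had 75.3, 133 and 168 CPM in PAE stroke livers and 67.0, 101 and 119 CPM in control stroke livers, and the groups overlapped. Without PAE stroke female replicate 3, whose 75.3 CPM stood apart from its group, 1 gene of the 29 was called, namely Scarb1. The response to stroke did not differ detectably between PAE and control livers: 0 of the 29 interaction terms were called by either tool (0% of all genes by edgeR), and 3 had an unadjusted p under 0.05, namely Pmvk (0.55 ± 0.23), Cyp51 (0.52 ± 0.24) and Dhcr7 (0.58 ± 0.27). For the interaction 455 of all 15889 genes had such a p. All 29 terms (PAE change minus control change) were positive, with a median of 0.29 over the 29 genes and 0.02 over all genes and a median SE of 0.29. A difference of the median size was thus about 1 SE of a single gene. The smaller number of calls in control livers is therefore not shown to be a smaller response.

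Within the control stroke group the enzyme levels of males lay below those of females. The mean log2 CPM over the 18 enzymes was 7.06 ± 0.26 in PAE stroke males and 5.53 ± 0.49 in PAE naive males, and 7.05 ± 0.39 in PAE stroke females and 5.97 ± 0.40 in PAE naive females (SD, n = 4 each). It was 6.07 ± 0.34 in control stroke males and 5.51 ± 0.50 in control naive males (SD, n = 3 each), and 7.43 ± 0.24 in control stroke females and 6.16 ± 0.31 in control naive females (SD, n = 4 each). The difference after stroke was thus 1.52 in PAE males, 1.08 in PAE females, 0.56 in control males and 1.27 in control females. Dhcr7, chosen after its values were seen, is an example. It had 71.1, 96.1 and 83.9 CPM in the control stroke males and 151, 124 and 81.4 CPM in the control naive males, but 342, 259, 351 and 391 CPM in the control stroke females and 91.5, 180, 176 and 193 CPM in the control naive females. The females' groups did not overlap and the males' did, with stroke on the lower side. The share of all genes that separated groups of this size was not counted. The 3 control stroke males are those with 51.1%, 17.9% and 28.7% nuclear ribosomal RNA. It was 1.54% to 44.9% in control naive males, 10.7% to 18.8% in PAE naive males and 1.09% to 42.4% (median 1.71%) in PAE stroke males. The part of this RNA in the differences was not tested. A test of whether the sex difference in the response depended on exposure, added after these values were seen, called 0 of the 29 genes by edgeR and by DESeq2 (edgeR called 0.00629% of all genes), while 7 had an unadjusted p under 0.05, led by Dhcr7 (2.11 ± 0.55, adjusted p = 0.43). Such a p was found in 1425 of all 15889 genes.

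Over both exposures, male livers had 12 of the 29 genes higher and 1 lower after stroke (3.4% of all genes called higher and 2.35% lower), and female livers had 21 higher and 0 lower (4.07% of all genes called higher). Those higher were 11 enzymes and Insig1 in males, and 17 enzymes, Insig1, Scap, Stard4 and Abca1 in females. Of the 13 calls in males 6 were lost under at least 1 alternative (Mvd, Fdps, Sqle, Nsdhl, Insig1 and Insig2), as were 7 of the 21 in females (Sqle, Lss, Msmo1, Nsdhl, Scap, Stard4 and Abca1). Without the libraries over 40% nuclear ribosomal RNA 8 genes were called in male livers. The gene that fell in males was Insig2, with 76.4, 142 and 328 CPM in the 7 male stroke livers and 218, 307 and 370 CPM in the 7 male naive livers. The ranges overlapped through 1 stroke liver, control stroke male replicate 3, and the change was -0.89 ± 0.26 (adjusted p = 0.041). Leaving out any of 10 libraries ended this call, with adjusted p up to 0.12. The female change of Insig2 was -0.50 ± 0.24 (adjusted p = 0.25). The difference between the sexes in response was called for 0 of the 29 genes by edgeR and by DESeq2 (edgeR called 0.126% of all genes), with 4 at an unadjusted p under 0.05 (1158 of all 15889 genes). The largest were Abcg8 (-1.96 ± 0.71, adjusted p = 0.53) and Abcg5 (-1.70 ± 0.57, adjusted p = 0.42). Abcg5 had 3.24, 6.46 and 22.2 CPM in male stroke livers and 5.76, 18.2 and 26.9 CPM in male naive livers, but 14, 21.8 and 34.5 CPM in female stroke livers and 5.79, 10.5 and 40.3 CPM in female naive livers. Abcg8 followed the same order of medians, at 1.65 and 7.30 CPM in male stroke and male naive livers and 12.5 and 6.19 CPM in female stroke and female naive livers, all with overlapping ranges. Per male liver, Abcg8 was at 1.03, 3.86, 2.22 and 15 CPM in PAE stroke and 7.91, 11.9, 7.30 and 2.98 CPM in PAE naive rats, and at 1.26, 1.22 and 1.65 CPM in control stroke and 2.11, 6.92 and 9.18 CPM in control naive rats. The 3 control stroke males lay below all control naive males, and PAE stroke male replicate 4 lay above all other males. This order was picked after the values were seen, and the share of all genes with such a separation was not counted. The 3 control stroke males held 51.1%, 17.9% and 28.7% nuclear ribosomal RNA, whose part was not tested.

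Without stroke, male livers had 0 of the 29 genes higher and 7 lower than female livers, against 7.43% of all genes called lower. Tm7sf2, a sterol reductase of the lanosterol steps, had 22.5, 32.2 and 52.2 CPM in the 7 male naive livers and 64.9, 78.2 and 179 CPM in the 8 female naive livers. The sexes did not overlap, and the log2 difference was -1.50 ± 0.25 (adjusted p = 8.5e-05). Ebp had 29.1, 36.4 and 43.0 CPM in males and 46.2, 58.8 and 70.0 CPM in females, also without overlap (-0.69 ± 0.16, adjusted p = 0.0026). The share of all genes that separated the sexes without overlap was not counted, so these separations are description only. Npc2 had 24.7, 33.6 and 41.3 CPM in males and 43.5, 51.0 and 56.6 CPM in females (-0.60 ± 0.12, adjusted p = 0.00071). Mvd (-1.15 ± 0.33), Fdps (-0.94 ± 0.28), Npc1 (-0.62 ± 0.18) and Cyp51 (-0.55 ± 0.17) were lower in males with overlapping ranges. The count of 7 was 3 without control naive male replicate 3, a liver with 44.9% nuclear ribosomal RNA, which ended the calls of these 4 genes. Those of Fdps, Npc1 and Cyp51 were also lost without 1, 1 and 6 other libraries, and the adjusted p reached 0.12.

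In adipose tissue 28 of the 29 genes passed the filter on low counts, since Abcg8 was at 0.577 CPM or less in every adipose library. Stroke raised 3 of the 28 and lowered 0 in PAE rats (3.31% of all 18546 genes called higher) and raised 9 and lowered 0 in control rats (3.26% called higher). The median log2 changes were 0.19 over the 28 genes and 0.03 over all genes in PAE rats, and 0.42 and -0.02 in control rats. Mvk had 7.34, 9.38 and 11.9 CPM in PAE stroke fat and 5.28, 6.46 and 7.50 CPM in PAE naive fat, a log2 change of 0.53 ± 0.10 (adjusted p = 0.0049). It had 8.44, 10.3 and 11.1 CPM in control stroke fat and 5.47, 6.76 and 8.48 CPM in control naive fat (0.54 ± 0.11, adjusted p = 0.0059). In both exposures the ranges touched by less than 1 CPM and every stroke library was above the naive mean of its sex.

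Acat2 had 10.7, 15 and 34.3 CPM in PAE stroke fat and 9.69, 10.7 and 15.9 CPM in PAE naive fat (0.55 ± 0.14, adjusted p = 0.023), and 13.8, 19.4 and 25.2 CPM in control stroke fat and 8.17, 13.1 and 18.1 CPM in control naive fat (0.63 ± 0.15, adjusted p = 0.017). Scarb1, unlike in liver, was called in both exposures. It had 38.6, 62.9 and 78.9 CPM in PAE stroke fat and 35.2, 44.6 and 57.3 CPM in PAE naive fat (0.48 ± 0.14, adjusted p = 0.041), and 47.7, 65.4 and 82.4 CPM in control stroke fat and 25.7, 45.1 and 60.6 CPM in control naive fat (0.64 ± 0.15, adjusted p = 0.015). Acat2 and Scarb1 ranges overlapped in each exposure. In control fat the call of Acat2 was lost when the sexes were pooled (adjusted p = 0.13). In PAE fat the call of Acat2 was lost without PAE naive female replicate 1, PAE naive male replicate 4 or PAE stroke female replicate 3, with adjusted p up to 0.063, and that of Scarb1 without any of 12 libraries, with adjusted p up to 0.084.

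In control fat the other genes that rose were Nsdhl (0.65 ± 0.14), Cyp51 (0.71 ± 0.17), Ebp (0.47 ± 0.12), Fdps (0.55 ± 0.15), Idi1 (0.71 ± 0.20) and Fdft1 (0.40 ± 0.12). Nsdhl had 10.8, 13.7 and 23.2 CPM in control stroke fat and 8.13, 9.65 and 12.7 CPM in control naive fat. Cyp51 had 21.1, 26.9 and 47.5 CPM after stroke and 14.7, 18.7 and 21.3 CPM in naive fat. Ebp had 5.37, 5.56 and 7.43 CPM after stroke and 3.49, 4.31 and 5.05 CPM in naive fat, and it was the 1 gene of the 28 whose groups did not overlap, against 1.02% of all genes. Without control stroke male replicate 2 the count of 9 was 4. Leaving out single libraries ended the calls of Fdft1 (15 libraries), Fdps and Idi1 (9 each), and Cyp51 and Ebp (2 each), with adjusted p up to 0.11. In PAE fat 0 of the 28 genes separated the groups, against 0.345% of all genes.

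Neither exposure nor its interaction with stroke was called for any of the 28 genes in adipose tissue, by edgeR or by DESeq2 (0% of all genes by edgeR in each of the 3 comparisons). At an unadjusted p under 0.05 there were 3 genes between PAE naive and control naive fat, 0 between PAE stroke and control stroke fat and 3 in the interaction. Of all 18546 genes 1257, 703 and 1125 had such a p in these comparisons. The largest interaction term was that of Insig1, at -1.05 ± 0.32 (adjusted p = 0.79). Insig1 had 137, 202 and 328 CPM in PAE stroke fat and 149, 262 and 391 CPM in PAE naive fat (-0.44 ± 0.22, adjusted p = 0.22), and 139, 254 and 620 CPM in control stroke fat and 139, 179 and 260 CPM in control naive fat (0.61 ± 0.24, adjusted p = 0.14). All 4 groups overlapped, and 0 of 8 PAE stroke libraries but 5 of 7 control stroke libraries were above the naive mean of their sex. By sex, stroke raised 8 genes in male fat (4.19% of all genes called higher) and 5 in female fat (2.56%), lowered 0 in either, and 0 sex-by-stroke terms were called by either tool (0% of all genes by edgeR). Of these terms 2 of the 28 had an unadjusted p under 0.05, against 1018 of all 18546 genes. The male count was 2 without control stroke male replicate 2, with a range of 2 to 10 over single libraries left out, and the female count was 2 without any of 6 libraries, with a range of 2 to 5. Between male and female naive fat 0 of the 28 genes were called by either tool (0.555% of all genes by edgeR), with 7 at an unadjusted p under 0.05, against 2624 of all 18546 genes. The term for exposure, sex and stroke together called 0 of the 28 by either tool as well (0% of all genes by edgeR). For this term 6 of the 28 had an unadjusted p under 0.05, against 2264 of all 18546 genes.

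The tissues were then set side by side in a joint fit of all 60 libraries, with 19686 genes tested and its own scaling, so its CPM are not those above. Without stroke all 29 genes were higher in liver than in adipose tissue, against 37.3% of all genes called higher in liver. The median log2 difference was 3.44 over the 29 genes and -0.21 over all genes. Tm7sf2 differed most, with 30.9, 91.0 and 245 CPM in the 15 naive livers and 0.608, 0.979 and 2.26 CPM in the 15 naive fat samples (6.19 ± 0.20). Nsdhl (5.31 ± 0.13), Insig2 (4.74 ± 0.16), Sc5d (4.63 ± 0.14) and Cyp51 (4.43 ± 0.14) followed among the genes of synthesis and its control, and Abcg8 (5.89 ± 0.38) among the transport genes. By step of the pathway, the median differences were 2.05 for the 7 enzymes up to farnesyl diphosphate, 3.25 for the 3 that follow and 4.34 for the 8 from lanosterol on. Npc2 (0.21 ± 0.10, adjusted p = 0.043), Pmvk (0.58 ± 0.11) and Insig1 (0.86 ± 0.18) differed least. Insig1 had 141, 266 and 459 CPM in naive livers and 102, 158 and 280 CPM in naive fat, and Insig2 had 210, 354 and 547 CPM in naive livers and 11.2, 13.8 and 16.6 CPM in naive fat. With library totals in place of scaling, the median over all genes was -0.95, Npc2 and Pmvk had differences of -0.53 and -0.15 and Insig1 lost its call. The call of Npc2 was also lost on leaving out any of 4 animals, with adjusted p up to 0.24, among the 16 of the 30 animals (those numbered 1 or 2 in their group) that were each left out of the joint fit with both tissues.

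**Figure D4:**
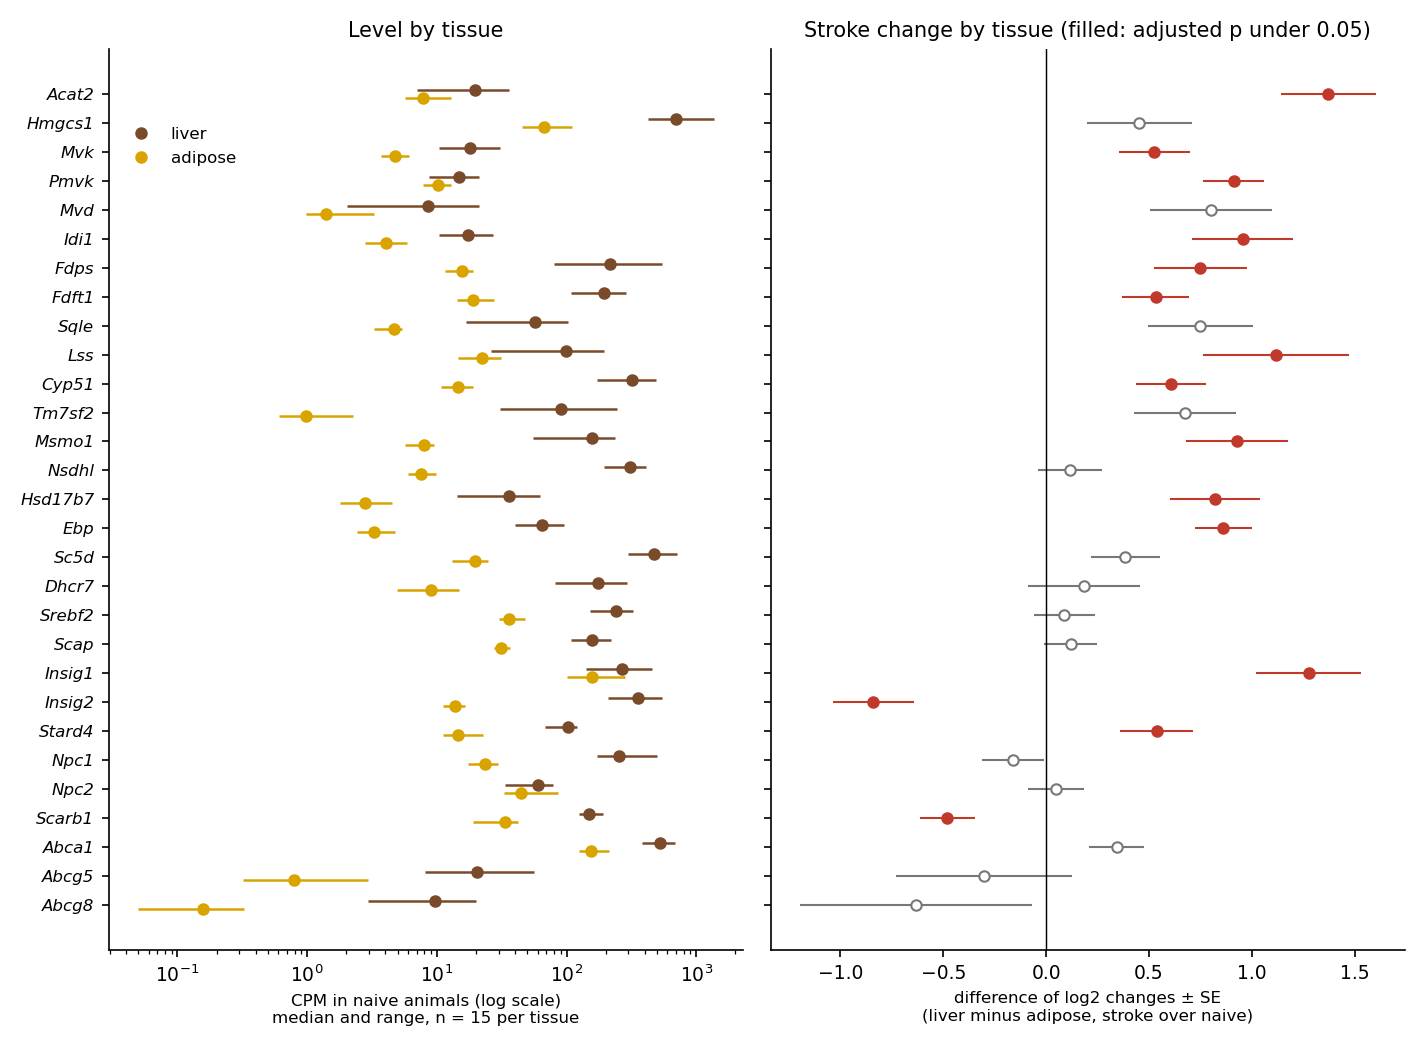
Left, level in CPM (log axis) of each gene in naive liver and naive adipose tissue, as median and range over 15 libraries each; right, difference in log2 stroke response, liver minus adipose tissue, with its SE. All 29 medians are higher in liver, and Acat2 (1.37) and Insig2 (-0.84) lie at the ends of the called differences in response.

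The response to stroke differed between the tissues for 15 of the 29 genes, 13 with a positive term (liver change minus adipose change) and 2 with a negative one, against 7.99% of all genes called in either direction. The median term was 0.53 over the 29 genes and -0.03 over all genes. It was called for 11 of the 18 enzymes, led by Acat2 (1.37 ± 0.23, adjusted p = 8.3e-05), Lss (1.12 ± 0.36, adjusted p = 0.040), Idi1 (0.96 ± 0.24, adjusted p = 0.0090) and Msmo1 (0.93 ± 0.25, adjusted p = 0.013). Insig1 (1.28 ± 0.26, adjusted p = 0.00073) and Stard4 (0.54 ± 0.18, adjusted p = 0.048) were the others with a positive term. Insig2 (-0.84 ± 0.20, adjusted p = 0.0040) and Scarb1 (-0.48 ± 0.13, adjusted p = 0.017) were the 2 with a negative term. In the fits of each tissue Insig2 changed by -0.64 ± 0.24 in PAE livers and 0.14 ± 0.08 in PAE fat, and by -0.76 ± 0.26 in control livers and 0.13 ± 0.09 in control fat, none of them called. With each animal as a block the call of Stard4 was lost (adjusted p = 0.071), Sqle was called, and the count was again 15. The calls of Mvk, Lss and Stard4 were each lost on leaving out any of 10 of these 16 animals, with adjusted p up to 0.15, 0.083 and 0.10. Those of Fdft1 and Fdps were lost without any of 7 and 5 animals, with adjusted p up to 0.087 and 0.055. With library totals in place of scaling the medians were 0.10 over the 29 genes and -0.44 over all genes, and 6 terms were called, 3 positive and 3 negative.

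Other sterol genes were set beside these 29 in 3 lists. Of 9 genes that process SREBP precursors or tune that step, stroke raised 2 in PAE livers and 1 in control livers, and lowered 0 in either, against 4.74% and 2% of all genes called higher. Tmem97, a sterol-responsive membrane protein, rose by 1.0 ± 0.20 in PAE livers (adjusted p = 0.0020) and by 1.01 ± 0.21 in control livers (adjusted p = 0.0067), and Srebf1, the paralog of Srebf2 that drives fatty acid synthesis, by 1.14 ± 0.35 in PAE livers (adjusted p = 0.047). Of 9 genes that take farnesyl diphosphate to products other than sterols (prenyl groups, dolichol and coenzyme Q), 0 were called in PAE or control livers by edgeR or DESeq2, with 0 and 1 at an unadjusted p under 0.05 and median log2 changes of -0.03 and -0.01. Of all 15889 genes 3274 in PAE and 2528 in control livers had such a p. Of 18 tested genes of sterol export, esterification and oxidation, 1 rose in PAE livers, Soat2, a sterol O-acyltransferase (0.51 ± 0.14, adjusted p = 0.027), and 0 in control livers by edgeR or DESeq2 (3 at an unadjusted p under 0.05), where 1 of 18 is near the share over all genes. In adipose tissue the same 3 lists held 1, 1 and 0 called genes in PAE rats (Tmem97 and Pdss1; the last list had 4 genes at an unadjusted p under 0.05 and 0 by DESeq2) and 1 each in control rats (Erlin2, Nus1 and Lpcat3), all higher after stroke, against 3.31% and 3.26% of all genes, and a single gene is not read as a result about its list.

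Genes listed as markers of other cells changed with stroke as well. Neutrophil markers (6 genes, 5 tested in liver) summed to 51.2 to 211 CPM in PAE stroke livers and 0.711 to 12.1 CPM in PAE naive livers, and to 13 to 309 CPM in control stroke livers and 1.22 to 5.10 CPM in control naive livers, with 5 and 4 of the 5 called higher, against 4.74% and 2% of all genes. In adipose tissue their sums were 18.6 to 487 CPM in PAE stroke and 10.1 to 18.1 CPM in PAE naive rats, and 5.95 to 154 CPM in control stroke and 7.11 to 50.9 CPM in control naive rats, with 3 of 5 higher and 1 lower (Cxcr2) in PAE rats and 1 higher (S100a9) in control rats. Of all 18546 genes 3.31% were called higher and 551 lower in PAE fat, and 3.26% higher in control fat. In liver Lcn2 led the called neutrophil markers, with log2 changes of 5.53 in PAE and 5.47 in control rats. The other called ones ran from 1.47 to 3.12 in PAE and from 1.41 to 3.06 in control livers. Which cells made the RNA of these genes, Lcn2 among them, was not tested, so the sums are no count of neutrophils. The hepatocyte sum overlapped between stroke and naive livers, at 74820 to 117037 CPM in PAE stroke and 79480 to 103600 CPM in PAE naive livers and 68361 to 114443 CPM in control stroke and 66593 to 96862 CPM in control naive livers. Of its 7 genes 2 were called higher in each exposure, against 4.74% of all genes in PAE and 2% in control livers. They were Apoa1 (1.48 ± 0.24, adjusted p = 0.00032 in PAE and 0.95 ± 0.26, adjusted p = 0.039 in control livers) and Serpina1 (0.72 ± 0.13, adjusted p = 0.0011 in PAE and 0.67 ± 0.14, adjusted p = 0.0078 in control livers). The adipocyte sum was 5996 to 11776 CPM in PAE stroke fat and 7717 to 14339 CPM in PAE naive fat. Of its 6 genes 1 was called lower, Adipoq (-0.79 ± 0.16, adjusted p = 0.0072), against 551 of all 18546 genes, and a single gene is not read as a result about its list. Other single markers called after stroke were Tek of endothelium in PAE fat (-0.32 ± 0.09, adjusted p = 0.035), Fabp4 of adipocytes (2.48 ± 0.68, adjusted p = 0.025) and Cela1 of pancreatic acinar cells (-1.20 ± 0.24, adjusted p = 0.0027) in PAE livers, and Lrat of stellate cells in control livers (-0.51 ± 0.14, adjusted p = 0.040). Each was the only called gene of its list in that comparison. Median list sums, stroke then naive, were 455 and 494 CPM (endothelium, PAE fat), 84.3 and 73.0 CPM (adipocyte, PAE liver), 14.9 and 15.4 CPM (acinar, PAE liver) and 398 and 380 CPM (fibroblast and stellate, control liver). Of all 15889 genes 359 were called lower in PAE livers and 151 in control livers. Of 4 B cell markers 0 were called in PAE fat by edgeR or DESeq2, and 4 had an unadjusted p under 0.05 (4454 of all 18546 genes). Their sum was 1.05 to 271 CPM (median 2.41) in PAE stroke fat and 0.699 to 6.12 CPM (median 2.17) in PAE naive fat. The part of any of these cells in the changes above was not tested.

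The authors' deposited tables of the same comparisons called 21 of the 29 genes higher and 1 lower after stroke in PAE livers (8.65% of genes with an adjusted p called) and 12 higher and 0 lower in control livers (4.6%). The gene called lower there was Insig2, at -0.59 with an adjusted p of 0.022 in the authors' deposited table, where the edgeR fit above gave -0.64 and 0.11. Hmgcs1, the enzyme that the edgeR fit did not call in PAE livers, was called higher in that table, at 0.68 with an adjusted p of 0.025. In adipose tissue the authors' deposited tables called 6 genes higher in PAE rats (8.54%) and 11 in control rats (8.13%), 0 lower in either. Between PAE naive and control naive rats they called 0 of the 29 genes in either tissue (0.0682% of genes in liver, 0.127% in adipose tissue).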

How the data were processed

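RNA was isolated with an RNeasy kit and made into stranded, ribosome-depleted libraries (TruSeq Stranded Total RNA with Ribo-Zero), per the labels' protocols. Per the submitters' processing notes, reads were handled with Trimmomatic, HISAT2, HTSeq and DESeq2 against rn7; versions and the strand setting of the counting are not given in the sources used here. The authors deposited 1 raw count per gene and library. The authors also deposited, for 6 comparisons, log2 fold changes and adjusted p-values; 90 columns of normalized counts in those tables were not used.

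Counts were fitted with edgeR 4.0.16 (R 4.3.3, limma 3.58.1) by its quasi-likelihood test, after filterByExpr with a minimum count of 10 and TMM scaling: 30 libraries and 8 groups of exposure, stroke and sex per tissue, and 60 libraries and 16 groups in the joint fit. Sexes weighed equally in each comparison, and p-values were Benjamini-Hochberg adjusted over all genes tested, with a call at 0.05. CPM are per TMM-scaled library, and a list mean is the mean log2 CPM over its genes with a prior count of 2. "Lowest, median and highest" is the order of the 3 values given for a group.

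Alternatives were DESeq2 1.42.0, other scaling, no filter, ribosomal RNA genes removed, libraries over 40% nuclear ribosomal RNA left out, a replicate block, sexes pooled and each library left out (in the joint fit, 16 of the 30 animals with both tissues); library totals without scaling and the exposure, sex and stroke interaction were added after the data were seen. Counts were also simulated, with changes set in PAE stroke libraries and read only in PAE stroke against PAE naive. For the liver libraries, 92% of genes changed 2-fold and 52% of those changed 1.5-fold were recovered, with 8 false among 179 calls over 15688 genes. For the adipose libraries these shares were 84% and 54%, with 13 false among 177 calls over 18374 genes. Interaction and sex terms were not simulated, so the recovery for them is not known. The labels' codes tie a liver and a fat library to each of 30 animals. The deviations of these pairs from their group means correlated by 0.0054 to 0.143 (median 0.057), against a median of -0.025 for other pairs of the same group. The joint fit treats them as separate samples, and a fit with the animal as a block stands beside it. No pair of replicates matched within sampling noise.

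The members and lists were chosen with earlier results of these data known. Full statistics went, by rule, to the 4 largest called changes in PAE livers, genes with the opposite sign, and up to 6 called genes per adipose comparison; other named genes were chosen after their values were seen.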

Additional observations from a re-analysis of the deposited data

Results flagged for a closer look

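In 24 of 308 groups of 4 to 10 libraries, 1 library stood farther from the rest than Dixon's 95% limit, which chance passes in about 1 in 20 groups. In liver, PAE stroke male replicate 2 was high in Idi1 (98.853 CPM) and Hsd17b7 (106.989 CPM), control stroke male replicate 3 was high in Insig2 (327.511 CPM) and PAE stroke female replicate 3 was low in Scarb1 (75.281 CPM). Among naive livers, PAE naive female replicate 2 was high in Fdps (387.589 CPM) and Scarb1 (136.157 CPM), control naive female replicate 2 in Tm7sf2 (178.792 CPM) and control naive female replicate 1 in Abcg5 (40.257 CPM). The mean log2 CPM of the 7 transport genes stood apart in PAE naive male replicate 4 (5.477).

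In fat, PAE stroke female replicate 3 was high in Nsdhl (19.889 CPM), Sc5d (43.704 CPM) and Dhcr7 (42.166 CPM) and in the mean log2 CPM of the 18 enzymes (4.118). Control stroke female replicate 3 was high in Insig1 (620.417 CPM) and Sc5d (44.579 CPM), and PAE stroke male replicate 1 in Sqle (14.863 CPM) and Cyp51 (52.611 CPM). Control stroke male replicate 2 stood apart in Sqle (14.029 CPM), in Scap (57.556 CPM) and in the mean log2 CPM of the 6 transport genes tested in fat (5.499). Control naive male replicate 3 stood apart in Mvd (4.685 CPM) and Npc2 (123.985 CPM), control naive female replicate 1 in Msmo1 (7.669 CPM), and PAE naive female replicate 4 in the mean log2 CPM of the 28 genes tested in fat (4.065).

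The stroke response differed between liver and fat, by the interaction term, in 15 genes. The log2 difference was positive for Acat2 (1.3711), Insig1 (1.2757), Lss (1.1192), Idi1 (0.9559), Msmo1 (0.9287), Pmvk (0.9107), Ebp (0.8603), Hsd17b7 (0.8207), Fdps (0.7502), Cyp51 (0.6077), Stard4 (0.5368), Fdft1 (0.5321) and Mvk (0.5256), and negative for Insig2 (-0.8402) and Scarb1 (-0.4796).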

How the results depend on the processing

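Counts of called genes among the 29 kept within 1.5 times of the value given in the report under most alternatives. With libraries over 40% nuclear ribosomal RNA left out, 8 genes were called in male livers after stroke, 3 between male and female naive livers and 1 in PAE fat after stroke. DESeq2 called 5 genes in PAE fat after stroke, 22 in PAE livers and 12 in control livers. With sexes pooled, 1 gene was called in PAE fat and 5 in control fat after stroke, and without the filter 5 were called in male fat. With library totals in place of scaling 6 genes had a called tissue difference in response. The median over the genes in place of their mean gave a control liver difference of 0.3648 on the log2 scale, against 0.5838; the cause of these shifts was not tested. Leaving out 1 library at a time gave 18 to 22 called genes in PAE livers, 7 to 10 in control livers, 9 to 15 in male and 14 to 22 in female livers, 0 to 1 between PAE stroke and control stroke livers, and 3 to 9 between male and female naive livers. In fat it gave 1 to 6 genes in PAE rats, 4 to 10 in control rats, 2 to 10 in males and 2 to 5 in females. The PAE count of 1 came without PAE naive female replicate 1, PAE naive male replicate 4 or PAE stroke female replicate 3, and the 6 without PAE stroke male replicate 3. The male count was 2 without control stroke male replicate 2, 3 without control naive male replicate 2, and 5 without PAE naive male replicate 3 or 4, PAE stroke male replicate 1 or control stroke male replicate 3. The female count was 2 without control naive female replicate 1, 3 or 4, PAE naive female replicate 4, control stroke female replicate 3 or PAE stroke female replicate 3, and 3 without control stroke female replicate 4 or PAE stroke female replicate 4. Uncalled changes near 0 turned sign: leaving out single livers gave Npc1 -0.0207 to 0.1312, Abcg5 -0.2155 to 0.3604 and Abcg8 -0.3967 to 0.7133 in PAE rats, and Srebf2 -0.0449 to 0.1304 and Npc1 -0.0766 to 0.1292 in control rats, where pooling sexes gave Npc1 0.0569. Library totals turned the liver minus adipose differences of Pmvk (-0.1461) and Npc2 (-0.5344). Same-numbered libraries of a tissue did not pair (median correlation 0.072 in liver and 0.015 in fat); with the replicate block 20 genes were called in PAE livers, 10 in control livers, 3 in PAE fat and 8 in control fat. In the joint fit the animal as a block left 29 calls between naive liver and fat and 15 differences in response, with Stard4 lost and Sqle gained and no other call changed among the 29 genes. No paired analysis was possible because the replicate codes hold the sex, for the comparison of male with female naive rats. Depth limited Abcg8 in fat, at under 1 CPM.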
